A study of Mus musculus with 6 samples.

Results

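The genes described here are 9 transcription factors of cranial mesenchyme and neural crest, Prrx1, Prrx2, Twist1, Twist2, Alx1, Alx4, Msx1, Msx2 and Tfap2a, among 43481 gene entries with a value in every library. They were picked by symbol, each symbol stood once in the table, and all 9 were among the 15710 entries with a mean of at least 1 FPKM (fragments per kilobase of transcript, scaled to the size of the library), which were tested. RNA came from the cranial base, the cartilage plate beneath the brain, in C57BL/6J mice at embryonic stage E15.5. There were 3 Memo1 mutant embryos, which carried an allele made by the chemical mutagen ENU, and 3 control embryos, whose genotype the labels give only as control, with 1 library per embryo. The comparison asks how the transcripts of the cranial base differ between genotypes, and it rests on 1 mutant allele and on whole tissue. Fewer cells of a type and less RNA per cell therefore cannot be told apart.

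Cranial neural crest cells leave the dorsal neural tube and, together with head mesoderm, form the mesenchyme from which skull cartilage and bone arise. PRRX, ALX and MSX proteins bind DNA through a homeodomain, TWIST proteins through a basic helix-loop-helix domain as dimers with E proteins, and TFAP2A through the domain of the AP-2 family. In mouse these factors keep mesenchyme dividing and undifferentiated or set the timing of chondrocyte and osteoblast formation, and loss of several of them disturbs skull or palate development.

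No member passed the test between genotypes. Twist1 was at nearly the same level in all 6 embryos, and Prrx1 was lower in every mutant than in every control without passing. Msx2 was lower too, but its value in mutant 1 was a listed 0. Msx1 differed more between embryos of 1 genotype than between the genotypes. With limma over all 15710 genes and Benjamini-Hochberg adjustment, the members' adjusted p ranged from 0.695 to 0.927. The same test called 0 of 15710 genes (percent called 0) and had 805 genes (5.12%) at an unadjusted p under 0.05, none of them a member.

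Mutant 1 stood apart from the other libraries. It listed 30811 entries at 0, against 19787 to 20594 in the other 5, and its log2 values correlated across tested genes with theirs at r = 0.748 to 0.762, against 0.968 to 0.981 among those 5. Tests are therefore given for all 6 libraries, without mutant 1 and, where stated, with array weights, by which limma gives a library far from its group less weight (0.0329 for mutant 1). Array weights called 320 of 15710 genes (2.04%), and leaving out mutant 1 called 7 (0.0446%). In neither was a member called, and the lowest limma adjusted p of a member was 0.191 with array weights and 0.283 without mutant 1, both for Prrx1.

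Msx1, Msx2 and Alx1 were listed at 0 in mutant 1, as were many genes of their level. The shares below are of genes above 0 in each of the other 5 libraries. Of 2140 genes with a mean of 2 to 4 FPKM in the other 5 libraries, the class of Msx2 and Alx1, 49.3% were at 0 in mutant 1. Of 2627 genes at 4 to 8 FPKM, the class of Msx1 and Alx4, it was 27.3%. For genes of 32 to 64 FPKM, the class of Twist1 and Prrx2, the share was 3.16%. The 0 values of these 3 members are therefore not read as absence. No mean over the mutants is given for them, and any fitted change that counts mutant 1 depends on the value added before the logarithm.

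**Figure D1:**
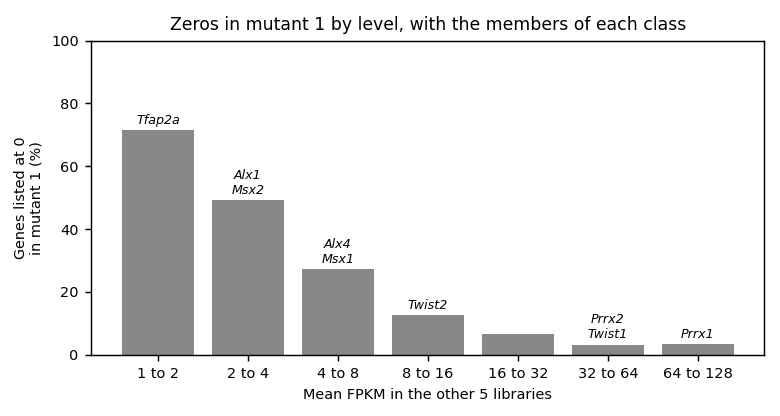
Share of genes listed at 0 in mutant 1 (vertical axis, percent) by their mean FPKM in the other 5 libraries (horizontal axis, 7 classes), with the members named above their class. Only genes above 0 in each of the other 5 libraries are counted. The share was 71.6% at 1 to 2 FPKM and 3.29% at 64 to 128 FPKM, and Msx1, Msx2 and Alx1 lie in classes where 27.3% or 49.3% were at 0.

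Prrx1 and, counting its 0 in mutant 1, Msx2 were the members whose mutants did not overlap with the controls. The 250 bases before the transcript start are printed for both, each with its paralog, whose groups overlapped. They are the RefSeq sequences of build GRCm38.p6, read in the direction of the gene, at chr1:163313651-163313900 (minus strand), chr2:30845117-30845366 (plus strand), chr5:37824586-37824835 (minus strand) and chr13:53472781-53473030 (minus strand). Capitals mark matches to the E-box CANNTG, the kind of site that TWIST dimers bind.
Prrx1: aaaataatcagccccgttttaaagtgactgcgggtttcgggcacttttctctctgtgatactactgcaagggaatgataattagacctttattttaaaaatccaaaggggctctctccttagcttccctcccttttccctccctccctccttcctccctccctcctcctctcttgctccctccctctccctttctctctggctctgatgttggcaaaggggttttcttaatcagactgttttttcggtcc
Prrx2: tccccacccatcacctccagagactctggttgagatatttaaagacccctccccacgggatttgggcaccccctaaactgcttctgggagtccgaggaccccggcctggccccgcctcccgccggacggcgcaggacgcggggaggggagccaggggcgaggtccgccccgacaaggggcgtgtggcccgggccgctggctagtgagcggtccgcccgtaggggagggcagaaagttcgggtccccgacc
Msx1: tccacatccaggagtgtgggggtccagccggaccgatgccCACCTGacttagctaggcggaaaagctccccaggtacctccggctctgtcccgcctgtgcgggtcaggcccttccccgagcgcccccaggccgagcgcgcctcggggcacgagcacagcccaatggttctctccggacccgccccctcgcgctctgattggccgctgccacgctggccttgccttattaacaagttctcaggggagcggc
Msx2: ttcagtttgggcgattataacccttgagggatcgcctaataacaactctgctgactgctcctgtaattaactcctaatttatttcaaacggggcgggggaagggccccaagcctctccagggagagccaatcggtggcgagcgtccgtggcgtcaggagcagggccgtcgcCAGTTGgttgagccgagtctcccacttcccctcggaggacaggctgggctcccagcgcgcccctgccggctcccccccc

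Promoter windows were at hand for 7 of the 9 members, and those of Alx1 and Alx4 were not used here. G and C made up 47.6% of the Prrx1 window and 70.0% of the Prrx2 window, 68.0% of the Msx1 window and 61.6% of the Msx2 window, against a median of 52.4% over 32851 windows of the same length. Among these 7 genes Msx1 and Msx2 held an E-box, 1 each, and the other 5 none, and 66.2% of all windows held 1 or more. The AP-2 motif GCCNNNGGC was matched at 2 positions before Prrx2 and at 1 before Twist2, and 13.7% of all windows held it. TATAAA was matched once, before Twist1, and in 12.4% of all windows. Both strands were searched, and a match is a description of letters only.

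The 9 factors covered a wide range of levels in control cranial base. By mean FPKM in controls the order was Prrx1, Prrx2, Twist1, Twist2, Alx4, Msx1, Msx2, Alx1 and Tfap2a. Prrx1 lay above 92.3% of all tested genes, Prrx2 above 90.6% and Twist1 above 86.3%, whereas Msx2 lay above 18.0%, Alx1 above 15.6% and Tfap2a above 7.72%. Single control values were separate between neighbours down to Alx4, though for Prrx1 and Prrx2 only narrowly, and overlapped between all neighbours from Alx4 to Tfap2a. The summed level of the 9 was 171.3, 201.6 and 184.7 FPKM in mutants 1, 2 and 3 and 226.8, 201.8 and 210.9 FPKM in controls 1, 2 and 3. Of this sum, the 3 most abundant members gave 81.4% to 85.7% in each library.

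**Figure D2:**
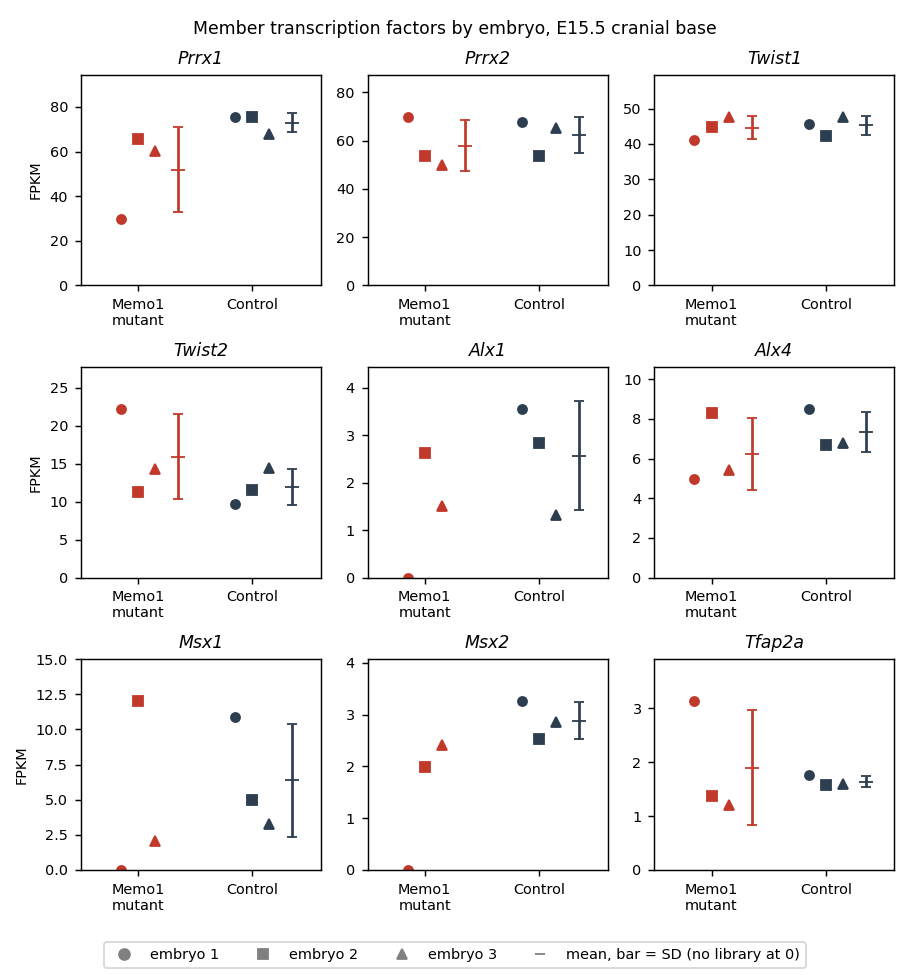
FPKM of the 9 members (vertical axes, linear from 0) in each Memo1 mutant and each control embryo, with a marker shape for each embryo number, and mean and SD where no library is at 0. The Prrx1 groups are separate, with 65.4 FPKM in the highest mutant and 67.9 FPKM in the lowest control, while the Twist1 values of both groups lie between 41.2 and 47.7 FPKM.

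Prrx1 and Prrx2 encode paired-related homeodomain proteins of limb and head mesenchyme that partly replace each other in the mouse, where loss of Prrx1 alone malforms the skull. Prrx1 was 29.9, 65.4 and 60.2 FPKM in mutants 1, 2 and 3 and 75.5, 75.6 and 67.9 FPKM in controls 1, 2 and 3. Every mutant was below every control, with mutant 1 farthest. All 3 mutants lay below all 3 controls in 1871 of the 15710 tested genes (11.9%), and of the 9 members this held for 2, Prrx1 and Msx2. For Msx2 this counts a 0 in mutant 1. The log2 change of Prrx1 on the log2(FPKM + 1) scale was -0.56 with an SE of 0.30 (limma adjusted p = 0.695). Without mutant 1 it was -0.21 with an SE of 0.085 (95% interval -0.42 to -0.01, limma adjusted p = 0.283), so leaving out that library moved the estimate by more than 1.5 times. The mean of mutants 2 and 3 was 0.86 of the control mean. In the authors' deposited table the signed fold of Prrx1 was -1.41, with a p-value of 0.187.

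Prrx2 was 69.9, 53.6 and 50.0 FPKM in mutants 1, 2 and 3 and 67.8, 53.8 and 65.2 FPKM in controls 1, 2 and 3. The groups overlapped because mutant 1 was the highest of all 6 libraries, and mutants 2 and 3 were just below the lowest control. Its log2 change was -0.11 with an SE of 0.17 (limma adjusted p = 0.752), and without mutant 1 -0.25 with an SE of 0.12 (95% interval -0.54 to 0.03, limma adjusted p = 0.336). Mutants 2 and 3 lay below all controls in 3154 of the 15710 tested genes (20.1%), and in 4 of the 9 members, Prrx1, Prrx2, Msx2 and Tfap2a.

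The level of 1 paralog over the other was compared within each library, where scaling cancels apart from the 1 FPKM added, which weighs on low genes. The log2 ratio of Prrx1 to Prrx2, with 1 FPKM added to each, was -1.20, 0.28 and 0.26 in mutants 1, 2 and 3 and 0.15, 0.48 and 0.06 in controls 1, 2 and 3. Mutants 2 and 3 lay inside the range of the controls, and only mutant 1 had less Prrx1 than Prrx2. The mean difference, mutants minus controls, was -0.45 (exact two-sided permutation test, p = 0.70, adjusted p = 0.80 over 4 pairs, where the smallest p that 3 against 3 allows is 0.10), and without mutant 1 its sign turned, to 0.042 (p = 0.80, adjusted p = 1, where 2 against 3 allows no p below 0.20).

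Twist1 and Twist2 encode closely related helix-loop-helix proteins that hold back osteoblast differentiation, and in human and mouse loss of 1 copy of Twist1 leads to early fusion of the coronal suture. Twist1 was 41.2, 44.9 and 47.6 FPKM in mutants 1, 2 and 3 and 45.7, 42.3 and 47.7 FPKM in controls 1, 2 and 3. The groups overlapped throughout, and the mean was 44.6 ± 3.22 FPKM in mutants and 45.2 ± 2.73 FPKM in controls (SD, n = 3 each). The log2 change was -0.02 with an SE of 0.11 (limma adjusted p = 0.927), and without mutant 1 0.034 (95% interval -0.17 to 0.24, limma adjusted p = 0.865). This interval is the bound these 5 libraries put on a difference, and the sign turned between the fits. Across the 5 libraries other than mutant 1 the highest Twist1 value was 1.13 times the lowest, a larger spread than in 13.8% of genes within 1.5-fold of its control mean.

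Twist2 was 22.2, 11.3 and 14.3 FPKM in mutants 1, 2 and 3 and 9.70, 11.6 and 14.4 FPKM in controls 1, 2 and 3. Mutant 1 was the highest, and mutants 2 and 3 lay among the controls. The log2 change was 0.36 with an SE of 0.28 (limma adjusted p = 0.695), and without mutant 1 0.11 (95% interval -0.33 to 0.54, limma adjusted p = 0.798). The log2 ratio of Twist1 to Twist2 was 0.87, 1.90 and 1.67 in mutants 1, 2 and 3 and 2.13, 1.78 and 1.66 in controls 1, 2 and 3, so Twist1 was the more abundant in each library. The ratio differed between genotypes by -0.38 (exact two-sided permutation test, p = 0.50, adjusted p = 0.80), and by -0.071 without mutant 1 (p = 1, adjusted p = 1).

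**Figure D3:**
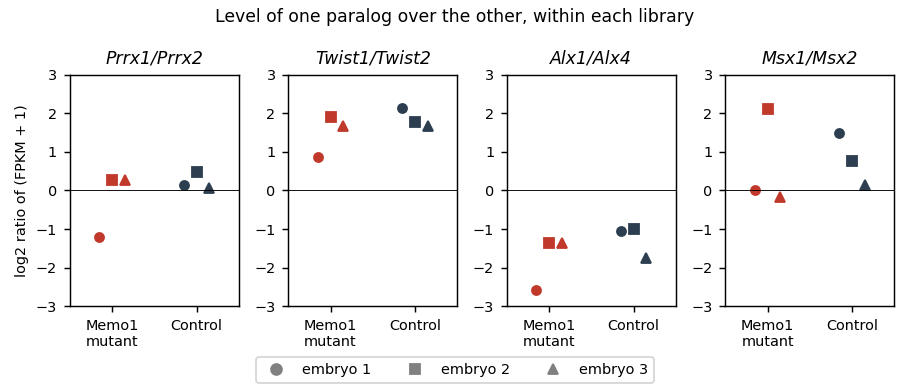
Log2 ratio of (FPKM + 1) of 1 paralog to the other (vertical axes) in each Memo1 mutant and each control embryo, for 4 pairs. Twist1 exceeds Twist2 in all 6 libraries and Alx1 is below Alx4 in all 6. The Msx1 to Msx2 ratio is 2.12 and -0.17 in mutants 2 and 3 and runs from 0.14 to 1.49 among controls. In mutant 1 Msx1, Msx2 and Alx1 are listed at 0, so its points for the Msx and Alx pairs depend on the 1 FPKM added.

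Msx1 and Msx2 encode homeodomain repressors that BMP signals induce, and in the mouse Msx1 is needed for teeth and palate and Msx2 for growth of the skull vault. Msx1 was 0, 12.0 and 2.04 FPKM in mutants 1, 2 and 3 and 10.9, 4.96 and 3.25 FPKM in controls 1, 2 and 3. Mutant 2 was the highest of all libraries and mutant 3 the lowest of those above 0, so the groups overlapped. The highest control was 3.37 times the lowest, where the median for 3181 genes within 1.5-fold of its control mean was 1.23, and 98.7% of them had a smaller spread. Over the 5 libraries other than mutant 1 the spread was 5.88-fold, more than in 99.2% of such genes. With all 6 libraries the limma adjusted p was 0.697. Without mutant 1 the log2 change was -0.097 with an SE of 0.73 (95% interval -1.94 to 1.75, limma adjusted p = 0.962), an interval too wide to show a change of either direction.

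Msx2 was 0, 1.99 and 2.41 FPKM in mutants 1, 2 and 3 and 3.26, 2.54 and 2.85 FPKM in controls 1, 2 and 3. Counting the 0 in mutant 1, each mutant was below each control, with a small gap between mutant 3 and control 2. Mutants 2 and 3 by themselves lay below all controls, as they did in 20.1% of tested genes. The mean of mutants 2 and 3 was 0.764 of that of controls, and the log2 change without mutant 1 was -0.28 with an SE of 0.15 (95% interval -0.64 to 0.08, limma adjusted p = 0.407). With all 6 libraries the fitted log2 change depended on the value added before the logarithm, at -0.84 with 1 FPKM (limma adjusted p = 0.695) and -1.88 with 0.1 FPKM (limma adjusted p = 0.676). The log2 ratio of Msx1 to Msx2 was 2.12 and -0.17 in mutants 2 and 3 and 1.49, 0.75 and 0.14 in controls 1, 2 and 3, with both genes at 0 in mutant 1. The difference without mutant 1 was 0.18 (exact two-sided permutation test, p = 1, adjusted p = 1).

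Alx1 and Alx4 encode aristaless-like homeodomain proteins of frontonasal mesenchyme, and loss of Alx1 in the mouse leaves the skull vault open. Alx1 was 0, 2.63 and 1.5 FPKM in mutants 1, 2 and 3 and 3.55, 2.84 and 1.32 FPKM in controls 1, 2 and 3. Mutants 2 and 3 lay inside the range of controls, which itself spanned 2.70-fold, more than for 93.1% of 2423 genes within 1.5-fold of its control mean. The limma adjusted p with all 6 libraries was 0.695. Without mutant 1 the log2 change was -0.19 (95% interval -0.97 to 0.59, limma adjusted p = 0.799). Control 1 and mutant 2 had more of Alx4 and Msx1 than the other libraries had, and control 3 and mutant 3 had the least Alx1 of the libraries above 0.

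Alx4 was 4.95, 8.29 and 5.45 FPKM in mutants 1, 2 and 3 and 8.50, 6.69 and 6.81 FPKM in controls 1, 2 and 3. Mutants 1 and 3 were below all controls and mutant 2 was among them. The mean was 6.23 ± 1.80 FPKM in mutants and 7.33 ± 1.01 FPKM in controls (SD, n = 3 each), with a log2 change of -0.23 and an SE of 0.25 (limma adjusted p = 0.701). Without mutant 1 this was -0.10 (95% interval -0.55 to 0.35, limma adjusted p = 0.819). The Alx4 gene overlaps Ext2 on the opposite strand in the GRCm38 annotation. Ext2, a subunit of the heparan sulfate polymerase, was 70.1, 71.2 and 70.3 FPKM in mutants 1, 2 and 3 and 61.0, 60.7 and 61.5 FPKM in controls 1, 2 and 3. No source used here says whether counting used strand, so reads where the genes overlap cannot be told apart. The log2 ratio of Alx1 to Alx4 was -2.57, -1.36 and -1.37 in mutants 1, 2 and 3 and -1.06, -1.0 and -1.75 in controls 1, 2 and 3. This ratio differed by -0.49 (exact two-sided permutation test, p = 0.50, adjusted p = 0.80), and by -0.09 without mutant 1 (p = 1, adjusted p = 1). The value with mutant 1 rests on Alx1 at 0 there, and it was -0.75 with 0.5 FPKM added and -1.45 with 0.1 FPKM.

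Tfap2a encodes an AP-2 factor that acts in neural crest induction and also in surface ectoderm. Tfap2a was 3.13, 1.37 and 1.20 FPKM in mutants 1, 2 and 3 and 1.76, 1.57 and 1.59 FPKM in controls 1, 2 and 3. Mutant 1 was the highest library and mutants 2 and 3 were the lowest. Of genes at 1 to 2 FPKM in the other 5 libraries, the class of Tfap2a, 71.6% were at 0 in mutant 1. In mutant 1 the lowest 5% of values above 0 ended at 1.87 FPKM, against 0.0258 to 0.0364 FPKM in the other 5. The Tfap2a value of mutant 1 thus lies low in the range of that library, and the fit of all 6 libraries counts it. The log2 change was 0.076 with an SE of 0.35 (limma adjusted p = 0.914), and without mutant 1 its direction turned, to -0.21 (95% interval -0.55 to 0.13, limma adjusted p = 0.497). The cranial base also held epithelium, whose 9 markers summed to 381 to 421 FPKM in mutants and 694 to 705 FPKM in controls. All 3 mutants were below all 3 controls in 6 of 9 (11.9% of tested genes were), and none was at 0 in any library. With all 6 libraries 0 of the 9 were called. With array weights 7 were called lower (1.32% of tested genes were). Without mutant 1 2 were called lower (0.0446% of tested genes were called in either direction). Among the 7 was the keratin gene Krt14, at 81.4, 39.3 and 32.3 FPKM in mutants 1, 2 and 3 and 57.6 to 59.1 FPKM in controls. Mutant 1 was above all controls for Krt14, so that call counts mutant 1 for little. Trp63, the transcription factor of basal epithelium, was 1.85, 3.43 and 2.66 FPKM in mutants 1, 2 and 3 and 7.08, 6.28 and 6.05 FPKM in controls 1, 2 and 3. The adhesion molecules Epcam and Cdh1 were called in none of these fits, and their groups overlapped. Epcam was 22.7, 25.7 and 16.0 FPKM in mutants 1, 2 and 3 and 19.2, 23.2 and 13.2 FPKM in controls 1, 2 and 3. Cdh1 was 27.6, 19.9 and 20.9 FPKM in mutants 1, 2 and 3 and 21.5, 18.5 and 17.0 FPKM in controls 1, 2 and 3. The part of these markers in the Tfap2a values was not tested.

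**Figure D4:**
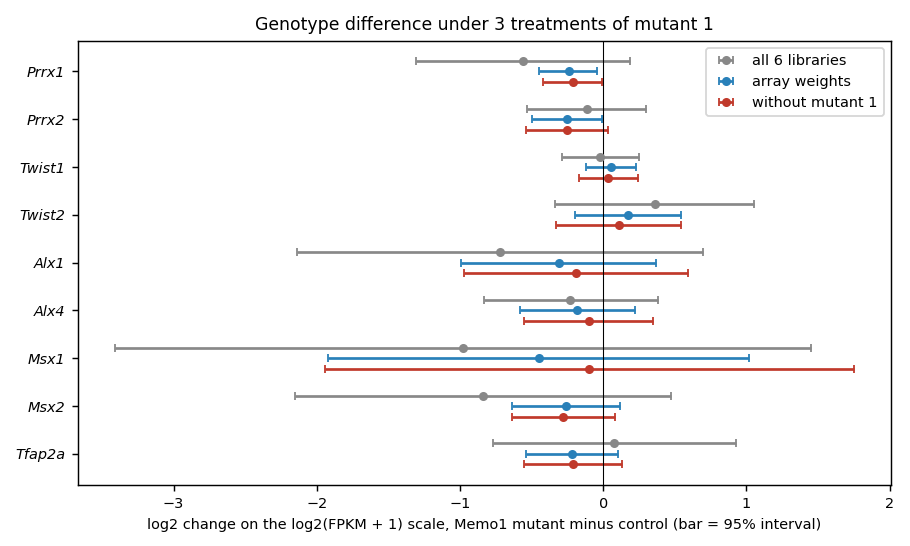
Log2 change of each member on the log2(FPKM + 1) scale (horizontal axis, Memo1 mutant minus control, bars are 95% intervals) when mutant 1 counts in full, is down-weighted or is left out; counted in full, Msx1, Msx2 and Alx1 rest on a 0 there. Left out, the interval of Twist1 runs from -0.17 to 0.24 and that of Msx1 from -1.94 to 1.75, and all 9 adjusted p are at least 0.283.

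Among the members 7 estimates were below 0 and 2 above, and the counts were the same with array weights and without mutant 1, where Twist1 was above 0 in place of Tfap2a. The median log2 change of the 9 was -0.23, against -0.046 over all tested genes, of which 54.2% were below 0. The medians without mutant 1 were -0.19 for the members and -0.015 for all tested genes. At an unadjusted p under 0.05 stood 2 of 9 members with array weights, Prrx1 and Prrx2, where 18.3% of all tested genes did, and 1 of 9 without mutant 1, Prrx1, where 17.0% did. Mutant 1 shares the first word of its title with control 1, and mutant 3 shares one with controls 2 and 3. What the word stands for is not stated in the labels. Within these sets Prrx1 had a log2 difference of -1.31 in the first and -0.25 in the second, Twist1 of -0.15 and 0.08, and Prrx2 of 0.04 and -0.24.

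Marker sums of loose mesenchyme, bone and skeletal muscle were lower and those of cartilage higher in every mutant than in every control. Such sums follow their most abundant genes and do not stand for each marker. The 8 markers of loose mesenchyme and fibroblasts summed to 4530 to 4670 FPKM in mutants and 5120 to 6380 FPKM in controls, with 7 of 8 log2 changes below 0. All 3 mutants were below all 3 controls in 4 of the 8 (11.9% of tested genes were), and 0 were called in any of the 3 fits. The 4 included Col1a1 and Col1a2, which weigh heavily in the sum. Col1a1 was 667 to 891 FPKM in mutants and 900 to 1350 FPKM in controls. Col1a2 was 569 to 745 FPKM in mutants and 916 to 1250 FPKM in controls. Col3a1, the most abundant of the 8, overlapped, as did Vim and Postn. Col3a1 was 1740, 1370 and 1500 FPKM in mutants 1, 2 and 3 and 1100, 1590 and 1610 FPKM in controls 1, 2 and 3. Dcn, the proteoglycan decorin, separated as well, at 134, 91.2 and 118 FPKM in mutants 1, 2 and 3 and 149, 175 and 161 FPKM in controls 1, 2 and 3. Pdgfra, a growth factor receptor of mesenchyme, overlapped, at 42.0, 43.6 and 44.3 FPKM in mutants and 44.5, 49.0 and 44.0 FPKM in controls. The 8 cartilage markers summed to 3890 to 4470 FPKM in mutants and 2660 to 3470 FPKM in controls, and the 7 bone markers to 374 to 634 FPKM in mutants and 974 to 1380 FPKM in controls. No marker of mesenchyme or cartilage was at 0 in any library. Col2a1 gave the largest part of the cartilage sum, at 2320 to 2660 FPKM in mutants and 1570 to 2210 FPKM in controls. Of the 8 cartilage markers 7 were above in all 3 mutants (8.98% of tested genes were), and Sox5 overlapped. Sox6 separated only narrowly, at 8.53 to 9.52 FPKM in mutants and 8.17 to 8.50 FPKM in controls. With array weights 3 of the 8 were called higher (0.719% of tested genes were), and in the other 2 fits 0 were. Of the 7 bone markers 5 were below in all 3 mutants (11.9% of tested genes were), and Bglap and Runx2 overlapped. Bglap was 0, 6.12 and 0 FPKM in mutants 1, 2 and 3 and 3.89, 2.78 and 4.78 FPKM in controls 1, 2 and 3. Runx2 was 40.1, 26.3 and 20.3 FPKM in mutants 1, 2 and 3 and 26.8, 25.3 and 22.2 FPKM in controls 1, 2 and 3. With array weights 3 of the 7 were called lower (1.32% of tested genes were), and with all 6 libraries or without mutant 1 0 were. Neuron and endothelial marker sums overlapped. The 4 of 6 skeletal muscle markers with a value summed to 582 to 702 FPKM in mutants and 800 to 1190 FPKM in controls. Of these 4, Ckm and Tnnt3 were below in all 3 mutants (11.9% of tested genes were), while Myh8 and Myog overlapped. In the 3 fits 0 of the 4 were called. The part of these markers in the member values was not tested.

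TWIST proteins work with partners, and a list of 12 E proteins, Id proteins and Hes or Hey factors had no member that passed. All 12 were tested, 6 were above 0 and 6 below, the median log2 change was 0.029 (0.066 without mutant 1), and 0 were called in any of the 3 fits. Tcf12, an E protein, was 53.9, 85.5 and 81.8 FPKM in mutants 1, 2 and 3 and 92.0, 93.7 and 85.2 FPKM in controls 1, 2 and 3 (limma adjusted p = 0.695, and 0.517 without mutant 1). Tcf3, also an E protein, was 101, 88.9 and 79.4 FPKM in mutants 1, 2 and 3 and 78.0, 81.5 and 85.5 FPKM in controls 1, 2 and 3 (limma adjusted p = 0.695, and 0.837 without mutant 1). The 3 mutants did not separate from the 3 controls for any gene of this list.

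Other transcription factors of cranial mesenchyme and neural crest did not move as 1 group. Of 57 listed, 55 were in the table and 51 were tested, with 26 above 0, 25 below 0 and a median log2 change of 0.045 (-0.0018 without mutant 1). With all 6 libraries 0 were called. With array weights 4 were called, 1 higher (0.719% of all tested genes were) and 3 lower (1.32% were), and without mutant 1 none was. In 7 of the 51 all mutants were below all controls (11.9% of tested genes) and in 3 all were above (8.98%).

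Among the 4 genes that passed with array weights, Osr2, a zinc finger factor of palate mesenchyme, fell. It was 10.9, 13.8 and 12.7 FPKM in mutants 1, 2 and 3 and 22.3, 19.3 and 21.3 FPKM in controls 1, 2 and 3, with no overlap (weighted log2 change -0.63, SE 0.092, limma adjusted p = 0.0279). Without mutant 1 its limma adjusted p was 0.0714. With equal weights it was 0.695, as it was for Barx1 and Foxd1, and 0.966 for Tfap2b. Barx1, a homeodomain factor of jaw mesenchyme, fell as well with array weights, at 20.9, 26.9 and 25.4 FPKM in mutants 1, 2 and 3 and 37.3, 33.3 and 38.7 FPKM in controls 1, 2 and 3 (weighted log2 change -0.46, SE 0.085, limma adjusted p = 0.0449). The limma adjusted p of Barx1 without mutant 1 was 0.105.

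Foxd1, a forkhead factor of kidney stroma and other mesenchyme, rose with array weights. It was 36.9, 22.6 and 26.8 FPKM in mutants 1, 2 and 3 and 12.5, 15.4 and 14.3 FPKM in controls 1, 2 and 3, again with no overlap (weighted log2 change 0.81, SE 0.11, limma adjusted p = 0.0245, and 0.0714 without mutant 1). Tfap2b, the AP-2 paralog of Tfap2a, fell with array weights. It was 21.3, 1.55 and 1.81 FPKM in mutants 1, 2 and 3 and 4.49, 4.90 and 4.74 FPKM in controls 1, 2 and 3. Mutants 2 and 3 were below each control but mutant 1 was above them all, and this call therefore counts mutant 1 for little (weighted log2 change -1.05, SE 0.17, limma adjusted p = 0.0346). For Tfap2b the limma adjusted p without mutant 1 was 0.0526.

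Further genes of this list separated by genotype without passing, and with all 6 libraries at equal weight the limma adjusted p of Snai1, Tbx15 and Dlx3 was 0.695. Snai1, a repressor of epithelial genes in migrating crest, was 41.1, 41.7 and 42.0 FPKM in mutants 1, 2 and 3 and 32.0, 33.9 and 38.2 FPKM in controls 1, 2 and 3 (weighted limma adjusted p = 0.139, and 0.238 without mutant 1). Tbx15, a T-box factor of skeletal precursors, was 22.3, 22.5 and 24.2 FPKM in mutants 1, 2 and 3 and 16.8, 19.1 and 20.1 FPKM in controls 1, 2 and 3 (weighted limma adjusted p = 0.117, and 0.215 without mutant 1). Dlx3, a homeodomain factor of epidermis, teeth and bone, was 0, 7.04 and 3.80 FPKM in mutants 1, 2 and 3 and 12.3, 7.49 and 9.55 FPKM in controls 1, 2 and 3 (weighted limma adjusted p = 0.139, and 0.235 without mutant 1). Its separation counts a 0 in mutant 1, where 12.6% of genes at 8 to 16 FPKM in the other 5 libraries were at 0.

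**Figure D5:**
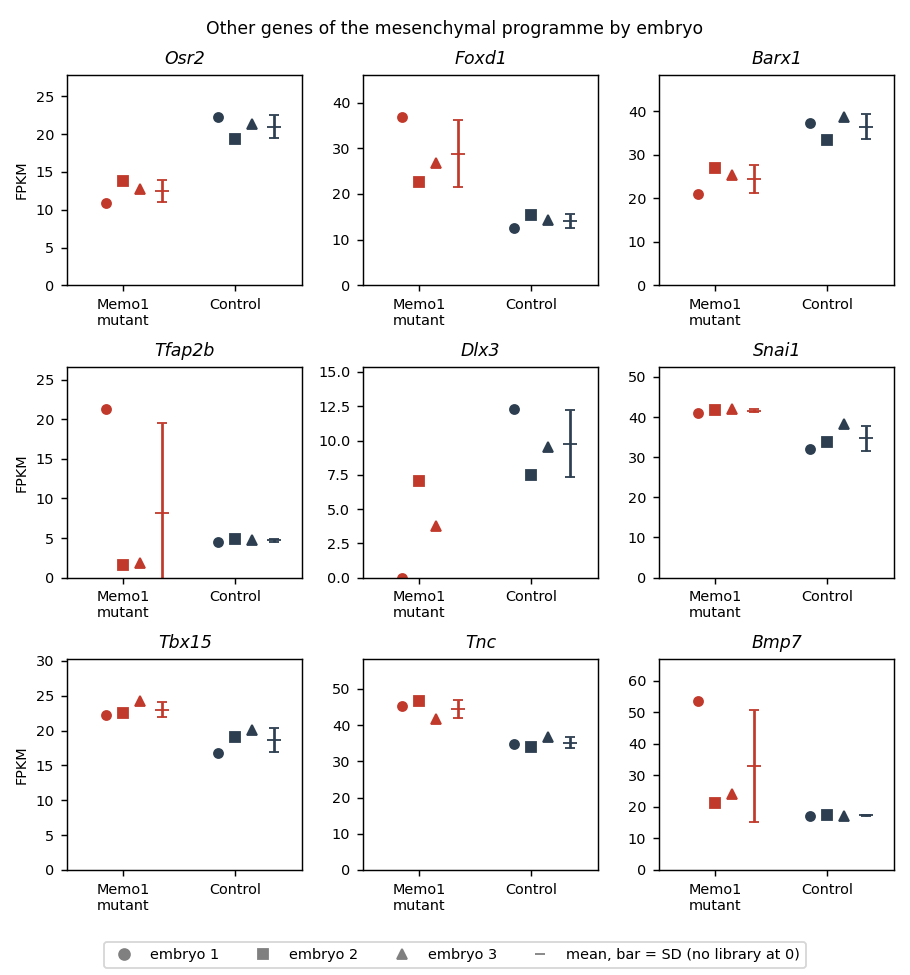
FPKM of 9 further genes of the fixed lists (vertical axes, linear from 0) in each Memo1 mutant and each control embryo, with mean and SD where no library is at 0. Osr2 and Barx1 are lower and Foxd1 is higher in all 3 mutants than in any control, while Tfap2b is 21.3 FPKM in mutant 1, against 1.55 and 1.81 FPKM in mutants 2 and 3.

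The last list held 32 signals, receptors and other genes known to act with these factors, all of them tested. Of these 19 were above 0 and 13 below, the median log2 change was 0.06 (0.026 without mutant 1), and 0 were called in any of the 3 fits. With all 6 libraries the limma adjusted p of Tnc, Sp7, Bmp7 and Notch2 was 0.695. Tnc, the matrix protein tenascin C that PRRX1 can induce, was 45.2, 46.6 and 41.6 FPKM in mutants 1, 2 and 3 and 34.8, 34.0 and 36.8 FPKM in controls 1, 2 and 3, with no overlap (weighted limma adjusted p = 0.0949, and 0.156 without mutant 1). Sp7, the osteoblast factor osterix, was 27.7, 33.2 and 23.3 FPKM in mutants 1, 2 and 3 and 46.5, 34.4 and 42.3 FPKM in controls 1, 2 and 3 (weighted limma adjusted p = 0.114, and 0.228 without mutant 1).

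Of the BMP ligands, Bmp7 was 53.5, 21.1 and 24.2 FPKM in mutants 1, 2 and 3 and 17.2, 17.5 and 17.1 FPKM in controls 1, 2 and 3. All mutants were above all controls, but the gene did not pass (weighted limma adjusted p = 0.0731, and 0.135 without mutant 1). Notch2, a receptor of the Notch pathway, was 19.4, 13.0 and 11.9 FPKM in mutants 1, 2 and 3 and 10.7, 10.4 and 10.4 FPKM in controls 1, 2 and 3 (weighted limma adjusted p = 0.243, and 0.273 without mutant 1). Across the 32 genes all mutants were above all controls in 3 (8.98% of tested genes were) and below in 3 (11.9% were).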

How the data were processed

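RNA-seq values of 6 embryonic cranial base libraries were analysed. The deposited table gives FPKM, which the authors made with Cufflinks on build mm9, per the submitters' processing notes. The unit was inferred from that tool and the values. No source used here gives the aligner, annotation release, filters or strand. The deposited table also holds the authors' signed fold score (negative where mutants are lower), their p-value, and a q score in which 99 stands for no value, from a test that no source used here names. The 15 entries holding a missing-value code in any library were left out.

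Entries with a mean of at least 1 FPKM entered limma 3.58.1 (R 4.3.3) as log2(FPKM + 1), with trend and robust eBayes, genotype as the only term, two-sided, Benjamini-Hochberg over all 15710 genes and a threshold of 0.05. This scale understates changes of low genes. Paralog ratios were tested by exact permutation. The procedure was tested on simulated data with large changes in more abundant genes and without zeros like those of mutant 1. That test does not cover small changes or low genes. Alternatives were array weights, each library left out, added values of 0.1 and 0.5 FPKM, no filter or at least 5 FPKM, median-ratio scaling, plain eBayes and the title word as a random effect (statmod 1.5.0) and, added after seeing the data, as a fixed term.

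Members and lists were chosen with earlier results of these data known. All members are named. From each further list the named genes are of the 8 with the smallest p or were called with array weights or without mutant 1. Trp63, Krt14, Epcam, Cdh1, Dcn, Pdgfra, Vim, Postn, Col1a1, Col1a2, Col3a1, Col2a1, Sox5, Sox6, Runx2, Bglap, Ckm, Tnnt3, Myh8, Myog and Ext2 were chosen after their values were seen. One marker list is not reported here. Each replicate is its own embryo, and replicate numbers follow accession order. No 2 libraries were copies: at most 0.00641% of values above 0 were equal. The table holds no counts. From steps between low FPKM values, depth relative to control 1 was 117% and 152% in mutants 2 and 3 and 80.3% and 92.1% in controls 2 and 3, and mutant 1 gave no usable steps.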

Additional observations from a re-analysis of the deposited data

How the results depend on the processing

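No member was called in any of the 15 alternatives, in which the limma adjusted p of members ranged from 0.191 to 0.981. Of 132 member values under the alternatives 5 changed direction, all of Twist1 and Tfap2a, and the cause was not tested. With array weights Twist1 was 0.052 and Tfap2a -0.22. Leaving out 1 library at a time, Twist1 ranged from -0.068 to 0.034, Tfap2a from -0.21 to 0.25, and the members' median from -0.42 (without mutant 2) to -0.13. Over all genes 320 were called with array weights and 0 to 7 with 1 library left out, the 7 without mutant 1. In the list of other transcription factors 4 were called with array weights. Tcf4 (-0.057) and Id4 (0.085) turned with array weights, and with 1 library left out they ranged from -0.053 to 0.25 and from -0.28 to 0.091. Tfap2b ranged from -1.09 to 0.47 there, positive without mutant 2 or mutant 3 (0.47 and 0.40). The difference in the log2 ratio of Prrx1 to Prrx2 ranged from -0.70 to 0.042 and that of Msx1 to Msx2 from -0.88 to 0.26. Both Msx genes were at 0 in mutant 1, so its ratio of 0 comes from the 1 FPKM added. Both ends of the Msx range count that ratio, and without mutant 1 the difference was 0.18. Replicate numbers follow accession order, so no pairing by them was made. With the title word as a random effect 0 genes were called. As a fixed term, an alternative chosen after seeing the data in which mutant 2 adds nothing to the contrast, limma called 0 genes, with 611 at an unadjusted p under 0.05. There the members' median was -0.44, Prrx1 was -0.70 (limma adjusted p = 0.598), and Tfap2b turned to 0.26. FPKM carry no counts, so counting error is not known, and in mutant 1 genes below about 8 FPKM were often listed at 0.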
